A study of Mus musculus with 18 samples.

Results

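Tropomyosins are coiled-coil proteins that lie along the actin filament, and the genes described here are the 4 tropomyosin genes of the mouse, Tpm1, Tpm2, Tpm3 and Tpm4, together with 4 partners of the smooth muscle thin filament, Cald1, Smtn, Lmod1 and Synpo2. They were chosen by gene symbol and make up 8 of the 35655 genes in the deposited count table. All 8 passed the filter on low counts that left 10312 genes for testing. RNA was measured in 18 libraries of mouse carotid artery from WT mice of the C57/BL6 strain. The animals were male and 11 weeks old at surgery, and the left carotid artery was injured with a wire while the right one served as control. Libraries came from arteries before injury (day 0, n = 4) and from arteries 7 (n = 4), 14 (n = 3), 21 (n = 4) and 28 days (n = 3) after injury. No library from a sham-operated artery was analysed here, so the injury and the surgery itself cannot be told apart. Stained frozen sections were cut with a laser to collect the wall with its outer elastic lamina and, where formed, the neointima, and many cut sections went into one RNA extraction. The libraries therefore hold every cell type of the captured wall and not smooth muscle cells alone, and the study describes the samples as pooled. Day 0 and day 21 libraries shared the number in their sample name in 3 cases, and neither the labels nor the methods tie each library to a single mouse. The p-values below therefore measure the spread between these libraries.

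In a smooth muscle cell, tropomyosin stabilises the actin filament and helps to set how myosin reaches it. Most tropomyosin of differentiated smooth muscle comes from Tpm1 and Tpm2, whereas Tpm3 and Tpm4 are the main tropomyosin genes of the cytoskeleton of non-muscle cells, leukocytes included. All of these tropomyosin genes give several isoforms through alternative exons, and some of them through alternative promoters as well. Caldesmon (Cald1) binds actin, tropomyosin and myosin and restrains contraction, smoothelin (Smtn) is an actin-binding protein of contractile smooth muscle, leiomodin 1 (Lmod1) starts new actin filaments, and synaptopodin 2 (Synpo2, also called myopodin) bundles actin filaments at dense bodies and Z-discs. Many genes of this kind in smooth muscle are driven by serum response factor (SRF) bound with myocardin to the CArG box.

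The start regions of 4 members are shown because their transcripts moved differently after injury: those of Tpm1 and Lmod1 fell with the smooth muscle genes, those of Tpm4 rose, and those of Synpo2 fell most of the 8. The sequences are from RefSeq on build GRCm38.p6 (250 bases before to 50 after an annotated start), 10 such promoters matched the 8 members, and their positions were found by exact match to GRCm39. Each is written 5′ to 3′ on the strand of its gene. Capitals mark CATTCC, the binding word of TEAD factors, on either strand, and any CArG box or stretch that differs from one by a single base, which can overlap each other.
Tpm1, chr9:66956446-66956745, minus strand: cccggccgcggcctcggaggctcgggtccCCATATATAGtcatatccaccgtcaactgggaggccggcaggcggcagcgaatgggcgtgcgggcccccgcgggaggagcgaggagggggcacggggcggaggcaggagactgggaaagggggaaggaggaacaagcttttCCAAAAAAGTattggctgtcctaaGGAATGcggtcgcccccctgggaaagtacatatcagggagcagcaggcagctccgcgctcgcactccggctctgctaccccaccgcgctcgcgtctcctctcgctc
Lmod1, chr1:135252301-135252600, plus strand: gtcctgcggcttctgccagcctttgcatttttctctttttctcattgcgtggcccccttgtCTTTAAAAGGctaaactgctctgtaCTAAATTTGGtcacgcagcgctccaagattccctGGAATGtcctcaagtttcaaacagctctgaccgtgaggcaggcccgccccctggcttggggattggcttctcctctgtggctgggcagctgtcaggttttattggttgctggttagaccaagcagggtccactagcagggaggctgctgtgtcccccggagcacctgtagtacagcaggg
Tpm4, chr8:72888882-72889181, plus strand: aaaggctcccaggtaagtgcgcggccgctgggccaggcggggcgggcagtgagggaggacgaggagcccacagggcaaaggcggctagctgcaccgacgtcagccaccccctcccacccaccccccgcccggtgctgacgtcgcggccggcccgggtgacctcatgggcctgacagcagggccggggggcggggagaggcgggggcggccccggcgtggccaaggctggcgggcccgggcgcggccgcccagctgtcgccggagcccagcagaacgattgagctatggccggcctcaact
Synpo2, chr3:123029749-123030048, minus strand: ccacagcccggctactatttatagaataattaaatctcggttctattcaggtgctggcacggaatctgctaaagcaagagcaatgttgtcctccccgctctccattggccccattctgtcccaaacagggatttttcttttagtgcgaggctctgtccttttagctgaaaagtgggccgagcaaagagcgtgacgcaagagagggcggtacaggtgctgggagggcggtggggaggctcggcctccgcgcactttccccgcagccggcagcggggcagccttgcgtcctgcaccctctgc
In the Tpm1 region the near-matches CCATATATAG and CCAAAAAAGT began at positions -221 and -80 relative to the start, with CATTCC on the other strand at -56. The Lmod1 region held CTTTAAAAGG and CTAAATTTGG, at positions -189 and -164, and CATTCC on the other strand at -130. The regions of Tpm4 and Synpo2 held neither word. Of the regions not shown, that of Tpm2, whose transcripts fell, also held neither, and both regions of Tpm3, whose transcripts rose, held near-matches of the CArG box. A full CArG box was in 0 of the 10 members' promoters and in 1.63% of the 32851 RefSeq promoters of that length. A stretch within 1 base of it was in 5 of the 10, from Tpm1, Tpm3, Cald1 and Lmod1, and in 21.1% of all promoters. CATTCC was in 4 of the 10, from Tpm1, Cald1, Smtn and Lmod1, and in 14.7% of all. These are matches of letters in one window and say nothing of sites elsewhere in the genes.

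The libraries held 440675 to 878310 counts (median 659166), so a single count was worth 1.18 to 2.33 CPM. CPM here is a gene's count scaled to a common library total, after adjustment of the totals by the trimmed mean of M-values. Members had 7 to 3932 counts in a library. Because the assay reads the 3′ end of polyadenylated RNA, a transcript gives about the same number of reads whatever its length, and CPM was compared between genes without division by length. The labelled tissue carried its defining markers: 20 smooth muscle genes that hold no member summed to 44337 to 49777 CPM on day 0, 2293 to 9739.8 on day 7, 10086 to 32133 on day 14, 12129 to 28683 on day 21 and 29448 to 38206 on day 28. Of the 20, Nrip2 had no count on days 0 and 28 and Pln none on day 7. Macrophage markers (16 genes) summed to 148 to 585 CPM on day 0, with Mpeg1 and Itgam at 0, and to 5963 to 8528, 1606 to 3724, 2334 to 3996 and 1027 to 1395 on the later days, with no marker at 0. Markers of fibroblasts (14 genes, none at 0 on any day) summed to 9377 to 14379.5 CPM before injury, then to 13492 to 19565, 26488 to 39546, 31128 to 52166 and 10999 to 13352 CPM for days 7, 14, 21 and 28, so that the ranges of days 14 and 21 lay above all others. The highest means were those of Col1a1, Col1a2 and Col3a1, at 11657, 8940 and 6017 CPM on day 14. Single fibroblast markers went both ways. Against day 0, edgeR called 6 lower and 5 higher on day 7 (8.53% and 11.3% of all genes). It called 2 and 5 on day 14 (1.42% and 4.8%) and 3 and 5 on day 21 (2.93% and 5.92%). Markers of platelets and erythroid cells summed to 53.6 to 379 CPM on day 0 and 454 to 2502 on day 7, those of neutrophils to 26.8 to 110.3 and 237 to 817, and those of endothelial cells to 689 to 1254 and 773 to 2444. On day 0 Cxcr2 held a mean of 50.3 CPM of the neutrophil mean of 57.4, with Csf3r and Retnlg at 0. Of the 10 endothelial markers, edgeR called 1 lower on day 7, Vwf, and 4 higher, Kdr, Cldn5, Cdh5 and Egfl7 (8.53% and 11.3% of all genes). Skeletal muscle markers summed to 129 CPM in day 7 replicate 2, 514 in day 14 replicate 2 and 420 in day 21 replicate 1, against at most 29.9 CPM in every other library. Results are therefore also given without these 3 libraries where a call changed. In tissue of this kind, fewer smooth muscle cells and less RNA of a gene per cell cannot be told apart, and the part that the mixture of cells had in any change below was not tested.

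Before injury Tpm2 was the most abundant member, at 4876 ± 454 CPM (SD, n = 4), followed by Tpm1 at 2437 ± 268 CPM (SD, n = 4). The 4 partners came next, Lmod1 at 1084 ± 138 CPM (SD, n = 4), Cald1 at 882 ± 193 CPM (SD, n = 4), Synpo2 at 738 ± 70.5 CPM (SD, n = 4) and Smtn at 658 ± 132 CPM (SD, n = 4). Tpm4 stood at 214 ± 80.7 CPM (SD, n = 4) and Tpm3 at 40.0 ± 9.83 CPM (SD, n = 4). Each of the 4 partners overlapped its neighbouring partner in this order across the 4 libraries. No other neighbours in the order overlapped. On day 7 the order was less spread, since Tpm2, Tpm1 and Tpm4 overlapped one another at 668, 465 and 391 CPM. The 8 members together held 10797 to 11282 CPM on day 0 and 1653 to 2945 on day 7.

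**Figure D1:**
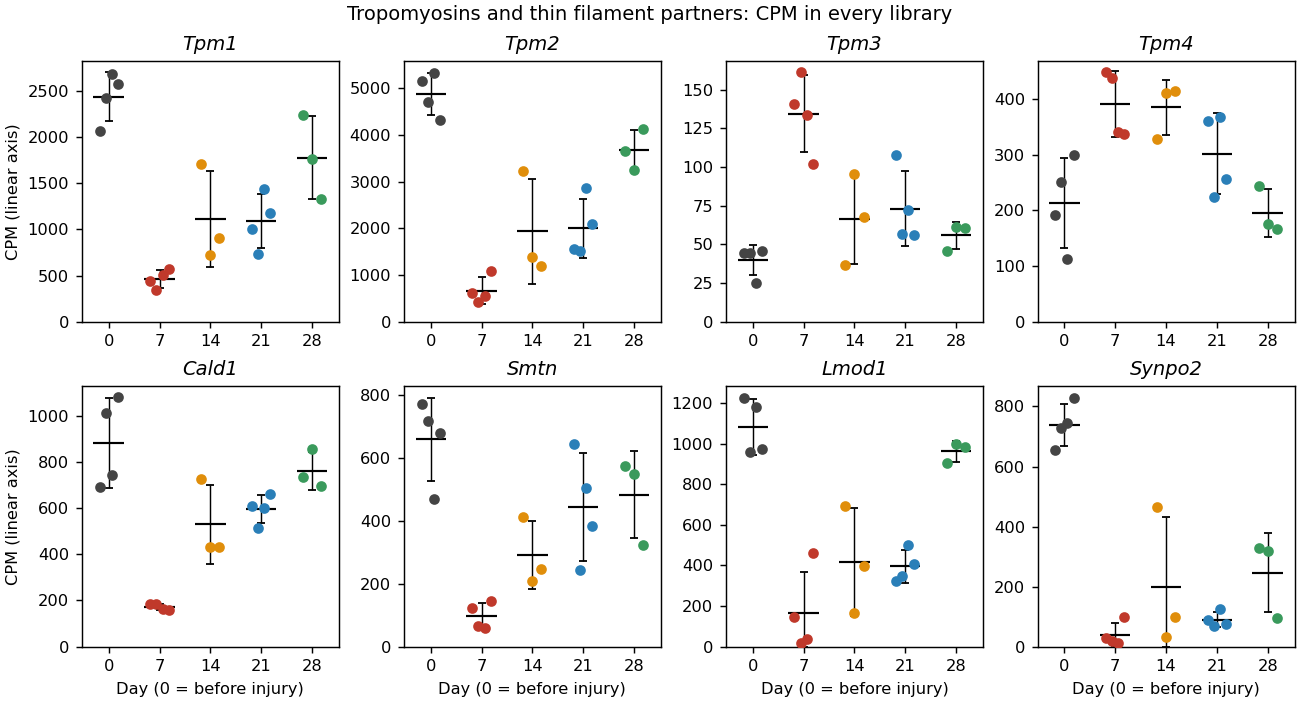
CPM (linear axis) of each member in every library by day after injury, with 4, 4, 3, 4 and 3 libraries on days 0, 7, 14, 21 and 28. Points are libraries, long lines are means and bars are 1 SD, cut at 0 where it would pass below. Tpm1, Tpm2, Cald1, Smtn, Lmod1 and Synpo2 were lowest on average on day 7, whereas Tpm3 and Tpm4 were highest on average on that day.

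Day 7 against day 0 addresses what the early injured wall kept of its thin filament transcripts. By edgeR's quasi-likelihood test with Benjamini-Hochberg adjustment over all genes tested, 6 of the 8 members fell and 2 rose, and 19.8% of all genes tested were called in that comparison (8.53% lower and 11.3% higher). The groups did not overlap for any of the 8, as for 23.3% of all genes. The median log2 change of the members was -2.54, beside 0.07 over all genes. On day 14, 3 members were lower than on day 0 and 0 higher (1.42% and 4.8% of all genes, 6.22% in either direction, median of the members -1.16), and on day 21 the counts were again 3 and 0 (2.93% and 5.92% of all genes, 8.84% in either direction, median -0.87). At an unadjusted p under 0.05, all 8 members differed from day 0 on day 14 and 6 on day 21, as did 17.2% and 21.9% of all genes. On day 28 edgeR called 0 of 8 (1.34% of all genes), 1 member had an unadjusted p under 0.05 (14.7% of all genes), and DESeq2 also called 0. Against day 7, 4 members were higher on day 14 (1.33% of all genes higher), 4 on day 21 (4.03%), and on day 28 6 were higher (6.4%) and 2 lower (8.05%). All later days share the same day 0 and day 7 libraries.

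**Figure D2:**
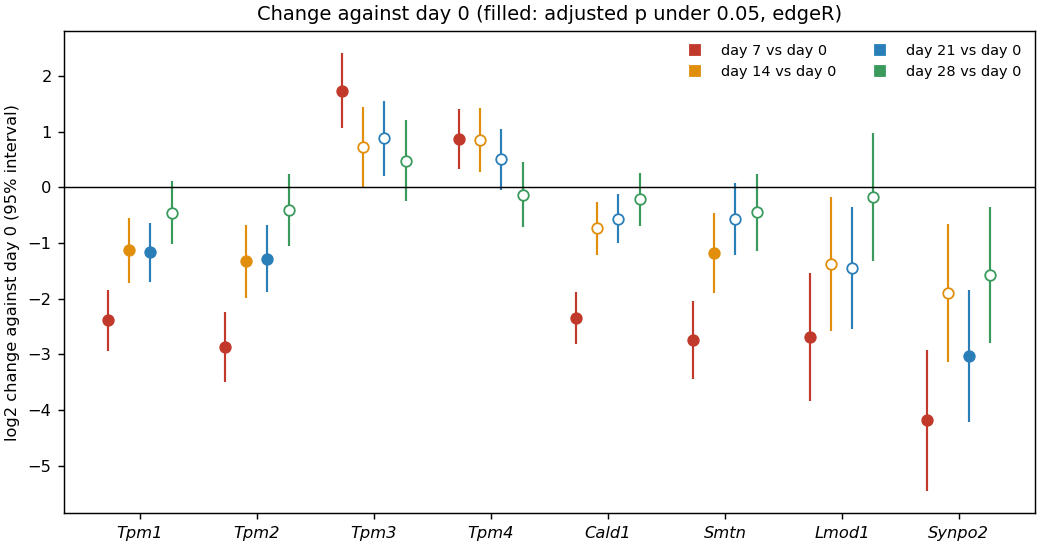
Log2 change of each member against day 0 (vertical axis) from edgeR, with 95% intervals, by later day. Filled symbols have an adjusted p under 0.05. All 8 symbols of day 7 are filled and none of day 28, and the Synpo2 estimate is the lowest of the 8 members on each day.

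Tpm2 (GRCm39, ENSMUSG00000028464, chr4:43514697-43524949, minus strand) encodes beta-tropomyosin. Its day 0 libraries held 5156, 4701, 5326 and 4323 CPM, and those of day 7 621, 426, 546 and 1077 CPM. Every day 7 value was below every day 0 value, a 7.30-fold fall (log2 change -2.87, SE 0.31, adjusted p = 4.6e-07, edgeR). The libraries of day 14 held 3226, 1385 and 1202 CPM, those of day 21 1551, 1504, 2852 and 2099 and those of day 28 3662, 3255 and 4116. Tpm2 was still lower than on day 0 on day 14 (log2 change -1.33, SE 0.32, adjusted p = 0.0114) and day 21 (log2 change -1.28, SE 0.29, adjusted p = 0.00616) by edgeR, without overlap. On day 28 all 3 libraries lay under the day 0 range, but the difference did not pass the test (log2 change -0.41, 95% interval -1.05 to 0.24, edgeR adjusted p = 0.575). Between days 7 and 28 Tpm2 rose 5.50-fold (log2 change 2.46, SE 0.32, adjusted p = 2.3e-05, edgeR).

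Tpm1 (GRCm39, ENSMUSG00000032366, chr9:66929870-66956953, minus strand), the gene of alpha-tropomyosin, followed the same course with a smaller range. Libraries held 2067, 2428, 2679.9 and 2575 CPM on day 0 and 445, 343, 504 and 568 CPM on day 7, without overlap. This was a 5.24-fold fall (log2 change -2.39, SE 0.27, adjusted p = 7.8e-07, edgeR). The last exon of Tpm1 overlaps Gm30639, annotated on the other strand. On day 14 the values were 1704, 720.0 and 912 CPM, on day 21 1004, 739, 1436 and 1175 and on day 28 2235, 1759.7 and 1334. Day 14 replicate 1 and day 28 replicate 1 were the highest of their days, and the day 28 range reached into that of day 0. Tpm1 was lower than on day 0 on day 14 (log2 change -1.13, SE 0.28, adjusted p = 0.0139) and on day 21 (log2 change -1.16, SE 0.26, adjusted p = 0.00485) in the edgeR fit, and on day 28 the log2 change was -0.46 (edgeR adjusted p = 0.458). On day 14, the edgeR calls of both Tpm1 and Tpm2 against day 0 were lost without day 14 replicate 2 (adjusted p = 0.136 and 0.106), without day 14 replicate 3 (0.0760 and 0.0809) and without the 3 libraries with skeletal muscle markers (0.164 and 0.107).

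Tpm3 (GRCm39, ENSMUSG00000027940, chr3:89979949-90008226, plus strand) and Tpm4 moved the other way. Tpm3 libraries held 44.7, 44.2, 25.3 and 45.9 CPM on day 0 and 141, 162, 134 and 102 CPM on day 7. All 4 day 7 libraries were above all 4 of day 0, and the rise was 3.34-fold (log2 change 1.74, SE 0.33, adjusted p = 0.000374, edgeR). Later values were 36.8, 95.3 and 67.8 CPM on day 14, 108, 56.5, 72.4 and 55.8 on day 21 and 46.0, 61.2 and 60.7 on day 28. The 3 libraries of day 28 lay below every day 7 library (log2 change -1.26, SE 0.35, adjusted p = 0.0171, edgeR), a call that was lost without day 7 replicate 2 (adjusted p = 0.0662), without day 28 replicate 1 (0.0665) and without the 3 libraries with skeletal muscle markers (0.0634). On days 14, 21 and 28 the log2 changes against day 0 were 0.73, 0.88 and 0.48, with edgeR adjusted p = 0.286, 0.0967 and 0.561.

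The Tpm3 counts are uncertain because 33.4% of the 31-base words in the last 500 bases of its transcripts also occur in other genes, mainly in the near-identical copy Tpm3-rs7. Over all libraries 841 counts were given to Tpm3 and 1771 to the genes that share words with it. Tpm3-rs7 itself stood at 84.2 ± 7.09 CPM before injury and 252 ± 108 CPM (SD, n = 4) on day 7. With the counts of both summed, the log2 change on day 7 was 1.63 (SE 0.27, edgeR adjusted p = 8.1e-05). On day 21 the sum was called higher than on day 0 (log2 change 1.05, edgeR adjusted p = 0.0132), which Tpm3 alone was not.

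Tpm4 (GRCm39, ENSMUSG00000031799, chr8:72884018-72906987, plus strand) had libraries at 192, 251, 112 and 299 CPM on day 0, 449, 437, 341 and 337 on day 7 and 328, 411 and 415 on day 14. Neither later group overlapped day 0. The rise on day 7 was 1.83-fold and passed the test (log2 change 0.87, SE 0.26, adjusted p = 0.0201, edgeR), whereas on day 14 a log2 change of 0.85 (SE 0.28, n = 3) did not (edgeR adjusted p = 0.0780, 0.0385 without day 0 replicate 4, and 0.0388 by DESeq2 with all libraries). Before adjustment the edgeR p was 0.0030 on day 7 and 0.0059 on day 14. On day 21 the libraries held 361, 224, 367 and 256 CPM and on day 28 244, 175 and 166 CPM, both overlapping day 0 (log2 change 0.50 and -0.13, edgeR adjusted p = 0.277 and 0.882). Against day 7, Tpm4 was lower on day 28 (log2 change -1.0, SE 0.29, adjusted p = 0.0218, edgeR). The day 7 call was lost without day 0 replicate 1 or 3 or without day 7 replicate 1 or 2 (adjusted p = 0.0522 to 0.0808) and without the 3 libraries with skeletal muscle markers (0.0912). The day 28 call was lost without day 7 replicate 1 or 2 or day 28 replicate 2 or 3 (adjusted p = 0.0665 to 0.0912) and without those 3 libraries (0.0835).

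As a share of the counts of all 4 tropomyosin genes, Tpm2 made up 64.4% ± 3.95 (SD, n = 4) on day 0 and Tpm1 32.2% ± 3.28. Tpm4 made up 2.87% ± 1.18 and Tpm3 0.535% ± 0.150. On day 7 the shares were 39.0% ± 8.84 for Tpm2, 28.1% ± 3.46 for Tpm1, 24.4% ± 6.72 for Tpm4 and 8.49% ± 2.84 for Tpm3 (SD, n = 4). The Tpm2 share did not overlap between the days and neither did those of Tpm3 and Tpm4, whereas the Tpm1 share did overlap. The summed level was 7567 ± 395 CPM before injury and 1658 ± 308 CPM (SD, n = 4) on day 7, so that the larger share of Tpm4 and Tpm3 stood beside a smaller total. The Tpm4 share then went down to 12.6% ± 5.58 (day 14, n = 3), 8.93% ± 2.13 (day 21, n = 4) and 3.40% ± 0.513 (day 28, n = 3), and Tpm2 was back at 64.6% ± 7.02 by the last of these. Within day 7, replicate 4 had the highest Tpm2 share, 51.7%, and the lowest Tpm3 share, 4.88%, and it was also the day 7 library with the highest sum of smooth muscle markers. With Tpm3-rs7 counted as Tpm3, the Tpm3 share was 1.63% on day 0 and 20.9% on day 7.

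**Figure D3:**
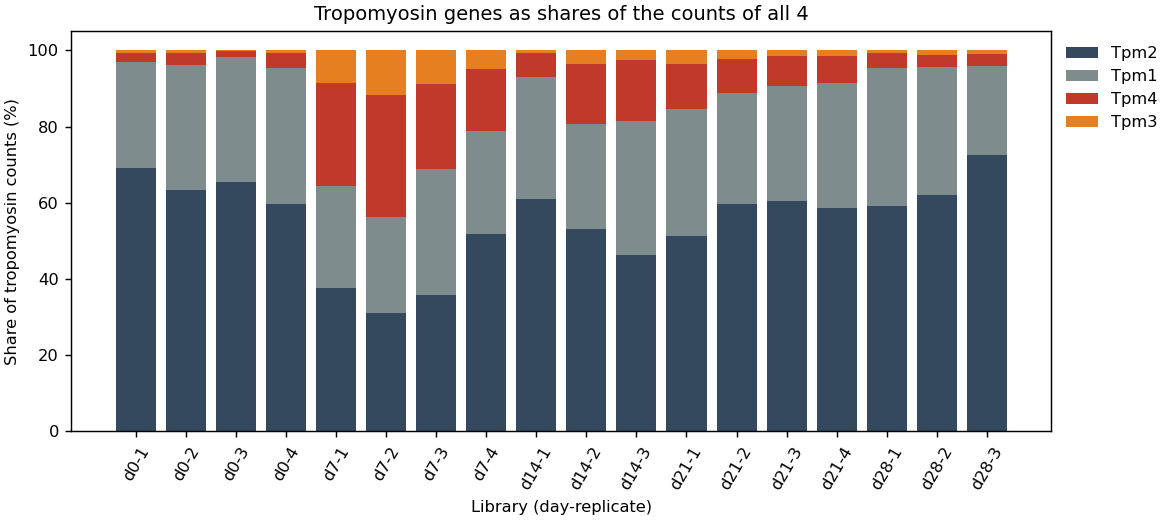
Share (%) of Tpm2, Tpm1, Tpm4 and Tpm3 in the summed counts of these genes, as stacked bars for each of the 18 libraries, named by day and replicate. In the day 7 libraries Tpm3 held 4.88 to 11.8% and Tpm4 16.2 to 31.9%, against 0.311 to 0.634% and 1.37 to 4.13% on day 0.

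Cald1 (GRCm39, ENSMUSG00000029761, chr6:34575435-34752408, plus strand), encoding caldesmon, held 691, 1010.2, 744 and 1081 CPM in the day 0 libraries and 185, 183, 163 and 158 CPM in those of day 7. The day 7 libraries lay close together and far below day 0, a 5.11-fold fall (log2 change -2.35, SE 0.23, adjusted p = 1.2e-07, edgeR). Values were 725, 431 and 432 CPM on day 14, 607, 513, 602 and 661 on day 21 and 732, 853 and 697 on day 28. Cald1 was higher than on day 7 on each of these days, without overlap (log2 change 1.62, 1.79 and 2.14, edgeR adjusted p = 0.000894, 2.7e-05 and 4.7e-06). Against day 0 the log2 changes were -0.74, -0.57 and -0.21, and none passed the test (edgeR adjusted p = 0.0612, 0.101 and 0.720). The day 14 difference was called by DESeq2 (adjusted p = 0.0140), by limma on the deposited normalised values (0.0150) and by edgeR without day 0 replicate 1, day 7 replicate 4, day 14 replicate 1 or day 21 replicate 2 (adjusted p = 0.0124 to 0.0481). That of day 21 was called by limma (log2 change -0.70, adjusted p = 0.0300).

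Smtn (GRCm39, ENSMUSG00000020439, chr11:3467520-3490612, minus strand) held 769.7, 716, 468 and 678 CPM on day 0 and 123, 66.5, 57.8 and 144 CPM on day 7. All day 7 libraries were below day 0, and the fall was 6.70-fold (log2 change -2.74, SE 0.34, adjusted p = 2.5e-06, edgeR). Later libraries held 413, 210.0 and 248 CPM on day 14, 643, 242, 503 and 382 on day 21 and 573, 549 and 323 on day 28. The day 14 libraries were still all below day 0 (log2 change -1.18, SE 0.35, adjusted p = 0.0395, edgeR), while days 21 and 28 overlapped it (log2 change -0.57 and -0.45, edgeR adjusted p = 0.297 and 0.566). The day 14 call was lost without day 0 replicate 1, 2 or 4 or day 14 replicate 2 or 3 (adjusted p = 0.0712 to 0.255) and without the 3 libraries with skeletal muscle markers (0.240). The last exon of Smtn overlaps Selenom and Gm11946 on the other strand, and whether reads were assigned by strand is not given in the sources used here.

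Lmod1 (GRCm39, ENSMUSG00000048096, chr1:135252509-135295907, plus strand) held 1222, 956, 1182 and 974 CPM on day 0 and 148, 17.97, 37.9 and 460.1 CPM on day 7. No day 7 library reached day 0, yet replicate 4 was well above the other 3. The fall was 6.48-fold (log2 change -2.70, SE 0.56, adjusted p = 0.00101, edgeR), and without day 7 replicate 4 the log2 change was -3.99. That library also had the highest sum of the smooth muscle list on day 7, 9739.8 CPM. Later libraries held 694, 164 and 397 CPM on day 14, 322, 349, 503 and 407 on day 21 and 903, 1001 and 983 on day 28. Days 14 and 21 lay below day 0 without overlap but did not pass the test (log2 change -1.37 and -1.45, edgeR adjusted p = 0.204 and 0.0893), and the day 21 difference passed it without day 7 replicate 2 or 4 (adjusted p = 0.0346 and 0.0178). Both differences passed it with no filter on low counts (adjusted p = 0.000116 and 2.1e-06) and in fits of only the days compared (0.0295 and 8.3e-05). Without the filter the log2 changes were -1.35 and -1.45, so it was the SE that moved, to 0.28 and 0.26 from 0.58 and 0.53. Day 28 overlapped day 0 (log2 change -0.17, 95% interval -1.33 to 0.98) and was 5.75-fold above day 7 (log2 change 2.52, SE 0.58, adjusted p = 0.00436, edgeR), with a log2 change of 3.82 without day 7 replicate 4.

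Synpo2 (GRCm39, ENSMUSG00000050315, chr3:122870168-123029798, minus strand) had the steepest fall of the 8. Its libraries held 655, 727, 745 and 827 CPM on day 0 and 28.5, 17.97, 14.0 and 98.5 CPM on day 7. The day 7 values lay far under those of day 0, an 18.2-fold fall (log2 change -4.18, SE 0.62, adjusted p = 2.4e-05, edgeR), and without day 7 replicate 4 the log2 change was -5.18. Later libraries held 465, 31.8 and 100.5 CPM on day 14, 88.7, 68.6, 127 and 76.8 on day 21 and 327, 319 and 94.3 on day 28. No library of any later day reached the day 0 range. By edgeR the difference from day 0 passed the test on day 21 (log2 change -3.02, SE 0.57, adjusted p = 0.00142) but not on day 14 (log2 change -1.89, adjusted p = 0.0620) or day 28 (-1.58, adjusted p = 0.196). Day 14 replicate 1 stood apart at 465 CPM, and without it the day 14 log2 change was -3.45 (adjusted p = 0.000796, edgeR). The day 14 difference was also called without day 7 replicate 3 or 4 or day 28 replicate 3 (adjusted p = 0.0262 to 0.0475). Keeping genes of low count in the fit gave an adjusted p of 3.1e-07 for it, and limma on the deposited normalised values one of 0.0200. In the former the log2 change was -1.87, with an SE of 0.32 in place of 0.60. The last exon of Synpo2 overlaps an unnamed gene on the same strand, so some of its counts could belong to that gene.

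The rise after day 7 was called on day 14 for Tpm1, Tpm2, Cald1 and Smtn (log2 change 1.26, 1.54, 1.62 and 1.56, edgeR adjusted p = 0.0166, 0.0104, 0.000894 and 0.0188). The same 4 were called on day 21 (log2 change 1.23, 1.58, 1.79 and 2.18, edgeR adjusted p = 0.00367, 0.00132, 2.7e-05 and 0.000197). None of these groups overlapped day 7, but the share of all genes without overlap is not given for these comparisons. On day 14, Cald1 alone kept its call in every set with 1 library left out. Tpm1, Tpm2 and Smtn lost theirs without day 14 replicate 1 (adjusted p = 0.280, 0.214 and 0.214), Tpm1 and Smtn without day 7 replicate 2 (0.0693 and 0.0751), and Smtn without day 7 replicate 3 (0.0671). In fits of only the days compared these 3 lost the day 14 call too (adjusted p = 0.0725, 0.0809 and 0.0614). Lmod1 and Synpo2 overlapped day 7 on both days and were not called with all libraries (day 14 log2 change 1.32 and 2.29, edgeR adjusted p = 0.366 and 0.0562, and day 21 log2 change 1.24 and 1.16, edgeR adjusted p = 0.189 and 0.288). Without day 14 replicate 1 the day 14 log2 changes were 0.76 and 0.75 (edgeR adjusted p = 1.000 for both). Without day 7 replicate 4 both passed the test on day 14 (log2 change 2.61 and 3.28, edgeR adjusted p = 0.00235 and 0.00408) and on day 21 (log2 change 2.54 and 2.16, edgeR adjusted p = 0.00103 and 0.0342). For Synpo2 the day 14 difference also passed it without day 14 replicate 2 (adjusted p = 0.00671), without day 28 replicate 3 (0.0439) and without the 3 libraries with skeletal muscle markers (0.0454). With no filter on low counts both genes were called on both days (adjusted p = 5.4e-10 to 0.00654), and limma called Lmod1 on day 21 (0.0221). Without the filter the SE was 0.26 to 0.32, against 0.54 to 0.62 with it, at nearly the same log2 changes. On day 28 Smtn and Synpo2 were 4.90-fold and 6.09-fold above day 7 (edgeR adjusted p = 0.000114 and 0.00555), although 1 day 28 library of Synpo2 lay within the day 7 range. Without day 7 replicate 4 the log2 change of Synpo2 was 3.60, against 2.61 with it. Tpm1 stood 3.82-fold above day 7 by then (edgeR adjusted p = 6.5e-05).

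Set beside the 20 other smooth muscle genes, of which 18 were tested, the members fell by unequal amounts. For days 7, 14, 21 and 28 the list had a median log2 change of -3.37, -1.42, -1.46 and -0.55 against day 0. Not every list gene fell. Rgs5 was called higher than on day 0 on days 14 and 21 (log2 change 4.41 and 3.96, edgeR adjusted p = 0.000241 and 0.000502), and it counts in the list's sum. Sncg was not called against day 0 on any day. On day 7, 14 of the 18 had a lower log2 change than Tpm1 or Cald1, and 13 a lower one than Tpm2, Smtn or Lmod1. Synpo2 stood lower in this order, with 2 of the 18 below it on day 7, then 3, 0 and 1 for days 14, 21 and 28. Per 1000 CPM of the list, Synpo2 had 15.6 ± 1.76 CPM before injury and 7.21 ± 2.24 at day 7 (SD, n = 4 each), followed by 8.48 ± 5.70, 4.76 ± 0.962 and 7.38 ± 3.73 for days 14, 21 and 28 (SD, n = 3, 4 and 3). The day 7, 21 and 28 libraries were all below those of day 0 on this scale, and day 14 replicate 1 lay within the day 0 range. Cald1 went from 18.7 ± 4.68 on day 0 to 48.7 ± 28.1 on day 7 and Lmod1 from 22.7 ± 2.12 to 24.6 ± 17.5 (SD, n = 4), both overlapping. Tpm1 went from 51.4 ± 6.61 to 122 ± 60.6 on the same scale and Tpm2 from 103 ± 8.66 to 157 ± 48.0 (SD, n = 4), without overlap. Tpm4 went from 4.52 ± 1.79 to 111 ± 66.0 and Tpm3 from 0.845 ± 0.217 to 39.9 ± 26.4, as both went up while the list went down. These ratios are descriptions, since macrophage markers rose in the same libraries and the source of each transcript was not tested.

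**Figure D4:**
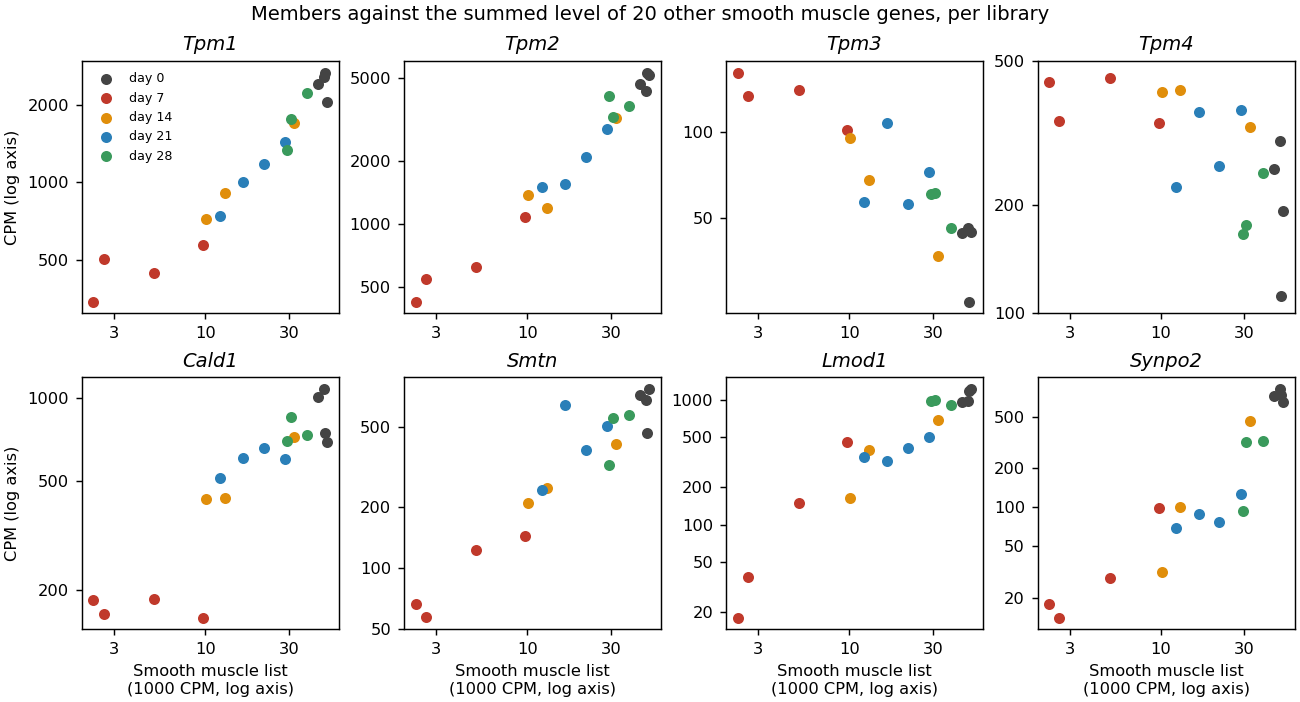
CPM of each member (vertical, log axis) against the summed CPM of 20 other smooth muscle genes (horizontal, 1000 CPM, log axis), with 1 point per library coloured by day. Tpm1, Tpm2, Smtn, Lmod1 and Synpo2 are high where the list is high, and the 4 day 7 libraries of Cald1 lie between 158 and 185 CPM across the day 7 range of the list. Tpm3 and Tpm4 tend to be low where the list is high. Tpm4 nevertheless held 328 CPM in day 14 replicate 1 and 367 CPM in day 21 replicate 3, where the list summed to 32133 and 28683 CPM.

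Across the 18 libraries the log2 CPM of Tpm1 and Tpm2 had a Pearson r of 0.965, and 0.744 after the mean of each day was taken off. Tpm3 and Tpm4 had 0.725 and 0.614, whereas Tpm2 and Tpm3 had -0.897 and -0.625. Cald1 and Lmod1, at 0.800 over all libraries, had 0.0826 within days. The points share library, depth and cell mixture, so these values describe the libraries only. Of all genes tested, those most like Tpm2 in this measure were Myl9, Myh11 and Dstn (r = 0.989, 0.985 and 0.980). Myl9 and Myh11 encode a light and the heavy chain of smooth muscle myosin and Dstn an actin-severing protein. For Tpm1 they were Dstn, Mylk and Acta2 (r = 0.981, 0.966 and 0.965), for Smtn Myom1, Acta2 and Lims2 (0.972, 0.959 and 0.956), and for Lmod1 Itga8, Ccdc3 and Tagln (0.983, 0.975 and 0.971). Cald1 was most like Hipk3, Smarcd3 and Ogn (r = 0.954, 0.954 and 0.949) and Synpo2 most like Rbp4, Stimate and Fblim1 (0.957, 0.950 and 0.947). The genes nearest Tpm3 were Ctsc, a lysosomal protease, Igsf6 and Cd44, the hyaluronan receptor (r = 0.934, 0.927 and 0.916), and those nearest Tpm4 were Cd53, a leukocyte tetraspanin, Eif1a and Sgpl1 (0.902, 0.900 and 0.893). After the mean of each day was taken off, r was 0.485, 0.345 and 0.486 for the genes nearest Cald1. For the genes nearest the other members it was 0.726 to 0.962.

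The wider set of actin filament genes showed both directions as well. It shares Cnn1, Acta2, Tagln and Actg2 with the smooth muscle list above, so these lists are not separate sets. Of 50 such genes that exclude the members, 41 were tested, and on day 7 20 were lower and 7 higher than on day 0 (19.8% of all genes called in either direction). The largest falls were those of Pdlim3, Cnn1, Ldb3 and Acta2 (log2 change -4.26, -3.69, -3.52 and -3.41), of which Cnn1 encodes calponin and Acta2 smooth muscle actin. The largest rises were those of Coro1a, a coronin of leukocytes, Capg, a capping protein of macrophages, Tmsb10, which binds monomeric actin, and Lsp1, an actin-binding protein of leukocytes (5.37, 2.52, 2.25 and 2.10). Tpm3 and Tpm4 rose in the comparison in which Coro1a and Lsp1 rose, and all 16 macrophage markers were called higher there. In that comparison 11.3% of all genes were called higher. From day 7 to day 14 the macrophage markers had a median log2 change of -0.996, beside -1.01 for Tpm3 and -0.02 for Tpm4. By edgeR, 2 of these markers were called lower, and neither Tpm3 nor Tpm4 was called. Which cells gave the Tpm3 and Tpm4 transcripts was not tested. Against day 0, the list of actin filament genes had 9 lower and 4 higher on day 14 (6.22% of all genes called). The list was led by Ldb3, Pdlim7, Flna and Flnc (-1.82, -1.55, -1.45 and -1.44) and by Coro1a, Lsp1, Tmsb10 and Capg (4.53, 2.15, 1.37 and 1.29). On day 21 it had 12 lower, led by Dstn, Flna, Tagln and Actg2 (-1.54, -1.51, -1.49 and -1.48), and 5 higher (8.84% of all genes called), led by Coro1a, Lsp1, Palld and Tmsb10 (3.86, 1.60, 1.39 and 1.32). On day 28 the single gene called by edgeR was Coro1a (3.14, higher), beside 1.34% of all genes. DESeq2 called 3, and its share of all genes is not given.

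Of 38 genes that regulate SRF-dependent transcription or contraction, 37 were tested. Ppp1r14a, Ppp1r12b and Mylk among them are also in the smooth muscle list. On day 7, 15 were lower and 1 higher (19.8% of all genes called). The lowest were Ppp1r14a, an inhibitor of myosin phosphatase, Ppp1r12b, a targeting subunit of that phosphatase, Rock1, a serine and threonine kinase, and Mylk, the myosin light chain kinase (log2 change -3.74, -3.50, -3.17 and -3.12). Mrtfa, an actin-sensing coactivator of SRF, was the 1 gene that rose (0.92). On day 14, 6 were lower, led by Ppp1r14a, Mylk, Rock1 and Csrp2 (-2.17, -1.51, -1.38 and -1.31), and on day 21 8, led by Ppp1r14a, Ppp1r12b, Mylk and Csrp2 (-1.97, -1.51, -1.44 and -1.36), with 0 higher on either day (1.42% and 2.93% of all genes lower). On day 28 edgeR called 0 of the 37 (1.34% of all genes). At an unadjusted p under 0.05 there were 4 (14.7% of all genes). DESeq2 called 1, without a share of all genes to set beside it.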

How the data were processed

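Libraries of the 3′ ends of polyadenylated RNA (MACE-seq) were made from laser-captured carotid artery. Per the labels, the authors used Salmon 1.9.0, DESeq2 1.36.0 and the mouse build mm39. They deposited a table of estimated counts per gene for 18 libraries, given as whole numbers, and a table of normalised signal values made from those counts. Of those values, 60.3% of the ones with a count lay within 1% of the count divided by 1 factor for their library. Library totals were 440675 to 878310 counts. The precision that counting gives is set by these totals, and per the methods PCR duplicates had been removed by molecular identifiers and low-quality and adapter-containing reads cropped before counting.

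The 35655 genes in the count table were filtered with filterByExpr in edgeR 4.0.16 (R 4.3.3), which left 10312, while 17606 had no count in any library. Libraries were scaled by the trimmed mean of M-values, and 1 quasi-likelihood model with day as the group was fitted over all 18 libraries, with the Benjamini-Hochberg adjusted p over all genes tested and a threshold of 0.05. Correlations used log2 CPM with a prior count of 2. Libraries of a day differed by more than counting noise in all 24 pairs (chi-square per degree of freedom 4.02 to 12.1), so none was treated as a duplicate. Groups and replicate numbers are those of the labels. Alternatives were DESeq2 1.42.0, its scaling inside edgeR, no filter on low counts, fits of only the days compared, limma 3.58.1 on log2 of the deposited normalised values plus 1, blocks for replicate and sample numbers, and leaving out each library. Chosen after the data were seen were a sum of Tpm3 and Tpm3-rs7, the fit of the 6 libraries with shared sample numbers without those numbers, and leaving out the 3 libraries in which skeletal muscle markers passed 100 CPM. The edgeR steps were run on simulated data in which only day 7 was changed. The spread of each gene there followed the trend with level, so spread particular to single genes was not tested. Genes named from lists were, for each comparison with day 0, up to 4 called genes with the largest log2 change in each direction. For each member, the 3 genes with the highest Pearson r were named. The members and lists were chosen with earlier results of these data known. Gene positions come from the GRCm39 annotation, and promoter sequences from RefSeq.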

Additional observations from a re-analysis of the deposited data

Results flagged for a closer look

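Tpm3 in day 0 replicate 3 stood at 25.3 CPM, away from the other day 0 libraries at 44.2 to 45.9 CPM, with a gap of 0.918 of the range of the day. It was the only such library among 24 groups of 4 libraries tested, and chance gives about 1 in 20. The same library had the lowest Tpm4 value of day 0.

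The change against day 0 differed between day 7 and a later day, by edgeR's test of the later day against day 7, for all 8 members. The difference in log2 change was 1.26, 1.23 and 1.93 for Tpm1 on days 14, 21 and 28. It was 1.54, 1.58 and 2.46 for Tpm2 on these days, 1.62, 1.79 and 2.14 for Cald1, and 1.56, 2.18 and 2.29 for Smtn. For Lmod1 and Synpo2 it passed the test on day 28, at 2.52 and 2.61. Tpm3 and Tpm4 had the opposite sign on day 28, at -1.26 and -1.0.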

How the results depend on the processing

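With each library left out in turn, the number of members called by edgeR against day 0 was 7 to 8 on day 7 (8 with all libraries), 0 to 5 on day 14 (3), 3 to 4 on day 21 (3) and 0 on day 28 (0). Against day 7 it was 1 to 6 on day 14 (4), 4 to 6 on day 21 (4) and 6 to 8 on day 28 (8). On day 14 against day 0, 0 members were called without day 14 replicate 2, without day 14 replicate 3 and without the 3 libraries with skeletal muscle markers, and 5 were called without day 14 replicate 1, without day 7 replicate 4, by DESeq2, with no filter on low counts and by limma on the deposited normalised values. On day 28 against day 0, 1 member, Synpo2, was called with no filter on low counts and in the fit of only the days compared (SE 0.31 and 0.32, against 0.59 in the main fit). On day 14 against day 7, 1 was called without day 14 replicate 1 and in the fit of only the days compared, and 2 without day 7 replicate 2. DESeq2 called 3 thin filament genes and 1 gene of the SRF and contraction list on day 28 against day 0 (edgeR 1 and 0, beside 1.34% of all genes). It called 11 thin filament genes on day 14 against day 7, where edgeR called 7, all higher (1.33% of all genes higher). Shares of all genes are given for the main edgeR fit only, so counts from the other fits have no such share beside them. With replicate number as a block no call changed, and the log2 change of Tpm4 on day 14 against day 7 was 0.0107 and that of Lmod1 on day 28 against day 0 0.0649, where the sign without the block was negative for both. Libraries with the same replicate number did not deviate together (median r -0.0057 over 33 pairs, -0.132 to 0.205), so the numbers were not taken as pairs. In the 6 libraries of days 0 and 21 that share a sample number, Lmod1 was called on day 21 both with the numbers as a block (adjusted p = 0.000395, edgeR) and with the numbers left out of the model (0.000260), so the block itself did not change the call. The log2 change of Tpm4 on day 14 against day 7, -0.02 with all libraries, was 0.00725 with only the days compared and -0.0808 to 0.105 with a library left out (above 0 without day 7 replicate 1 or 2 or day 14 replicate 1). That of Tpm4 on day 28 against day 0 ran from -0.339 to 0.0749, the highest without day 0 replicate 4. Neither was called under any of these settings, and the cause was not tested. Of 1472 values recomputed, 1393 kept direction and side of the threshold, 34 lost the call, 38 gained it and 7 changed sign. No scaling moved the median of all genes by more than 0.1 on the log2 scale. Depth limits Tpm3 and the day 7 values of Lmod1 and Synpo2 most, since the lowest member count in a library was 7.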

Other observations

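For each member, the count over the factor of its library, divided by the deposited value, gave 0.749 to 1.07 for Cald1 and 0.859 to 1.55 for Synpo2 across the 18 libraries. For Smtn it was 0.938 to 1.05 and for Tpm3 0.952 to 1.01, for Tpm1 and Tpm2 0.983 to 1.02 and 0.996 to 1.01, and for Tpm4 and Lmod1 0.998 to 1.001 and 0.999 to 1.001.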
